A study of Mus musculus with 7 samples.

Results

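MicroRNA (miRNA) genes hold 2301 of the 93611 genomic regions (2.46%) in which RelA and RelB binding was measured by chromatin immunoprecipitation and sequencing (ChIP-seq). These are the regions that the authors' deposited table assigns to a gene whose symbol begins with Mir and a digit, within 100 kb of that gene's start, and they belong to 602 miRNA genes. Another 524 regions assigned to miRNA genes lay beyond 100 kb and were left out. Just inside that limit, the regions of Mir365-2, Mir1892 and Mir680-3 averaged 6.31, 1.71 and 37.7 RPKM over the 3 WT ChIP libraries, and just outside it, those of Mir222, Mir7237 and Mir1901 averaged 4.03, 3.37 and 2.68 RPKM. RPKM, the unit of all levels given here, is the number of reads in a region scaled by the region's length and by the total reads of its library.

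The cells were bone marrow-derived dendritic cells (BMDCs) of C57BL/6 mice, labelled RelBko or WT, and the study asked how the loss of RelB affects RelA binding. All cells had been grown from bone marrow with the cytokines GM-CSF (20 ng/mL) and, at 10 ng/mL, IL-4. LPS, a bacterial cell wall component sensed by TLR4, was given at 10 ng/mL for 1 h. There were 7 libraries, 1 per group: RelA ChIP in RelBko cells at 1 h of LPS, RelA ChIP in WT cells at 1 h, RelB ChIP in RelBko cells at 1 h, RelB ChIP in WT cells at 1 h, RelB ChIP in RelBko cells at 0 h, RelB ChIP in WT cells at 0 h, and an input of WT cells whose label gives neither time nor treatment. The labels do not describe the RelBko allele, and binding signal cannot check the deletion or the cell type against expressed markers. Their treatment text names, beside LPS, a product that is a CpG oligonucleotide.

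A miRNA gene is transcribed, usually by RNA polymerase II, into a long primary transcript from which Drosha and then Dicer cut the mature miRNA of about the length of the sequences below. The bases after the first, the seed, choose the target mRNAs. Many miRNA hairpins lie inside introns of protein-coding host genes, and the promoter of the primary transcript can be far from the hairpin, so a region assigned to a miRNA gene may serve the host or a neighbour. RelA and RelB are NF-kB subunits, RelA of the canonical arm, which LPS activates within minutes, and RelB mainly of the noncanonical arm. The Mir155 host transcript and Mir146a are known NF-kB targets that LPS induces in myeloid cells.

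The miRNAs whose loci carry the results below are shown with their seed, bases 2 to 8, in capitals, from RefSeq for GRCm38.p6. First come miR-155, whose host transcript has 2 regions although Mir155 itself has none, and the miR-146 pair, which share a seed.
mmu-miR-155-5p: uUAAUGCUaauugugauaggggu
mmu-miR-146a-5p: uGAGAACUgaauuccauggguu
mmu-miR-146b-5p: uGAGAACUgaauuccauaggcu
The miR-29 family shares a seed among 4 genes with regions (Mir29a, Mir29b-1, Mir29b-2 and Mir29c). By the regions assigned to them, Mir29b-1 stood far above the others in binding level, as Mir222 did above Mir221.
mmu-miR-29a-3p: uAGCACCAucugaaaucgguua
mmu-miR-29b-3p: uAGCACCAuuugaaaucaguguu
mmu-miR-29c-3p: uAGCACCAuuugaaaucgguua
mmu-miR-222-3p: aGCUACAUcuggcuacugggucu
mmu-miR-221-3p: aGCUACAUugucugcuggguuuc
The last 3 belong to Mir34a, a p53-induced miRNA gene among the most strongly bound, to Mir9-3, which differed most with LPS among listed NF-kB miRNAs, and to Mir7676-1 and Mir7676-2, which held regions with less RelA in RelBko cells (all 3 regions of Mir7676-1 and 1 of the 5 of Mir7676-2).
mmu-miR-34a-5p: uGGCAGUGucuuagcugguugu
mmu-miR-9-5p: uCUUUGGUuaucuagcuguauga
mmu-miR-7676-5p: aGGGCAGUaugauggccucugau
In all, 533 of the 602 genes had a mature sequence in RefSeq. Their 853 mature sequences held 775 different seeds, of which 69 were shared by 2 or more of the genes.

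The libraries held between 13188833 (input) and 35064429 reads (RelB of WT cells at 0 h), recovered from the RPKM values, and the regions had a median length of 358 bp. Median signal over the 2301 miRNA gene regions was 4.45 RPKM for RelA in RelBko cells and 5.09 RPKM for RelA in WT cells. For RelB it was 0.984 RPKM in RelBko cells and 5.31 RPKM in WT cells at 1 h, and 1.34 RPKM in RelBko cells and 4.55 RPKM in WT cells at 0 h. Input had 0.892 RPKM. RelB ChIP in RelBko cells thus gave a median close to input at 1 h. With 1 library per group no difference can be tested. Log2 ratios below are of RPKM with 0.5 RPKM added to both values. Read ratios, scaled by library totals, are followed by their 95% interval, which covers the counting of reads only, and reads are not independent molecules.

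A region is called enriched in a library with at least 2 RPKM and at least 2-fold the input, after 0.5 RPKM is added to both. RelA was enriched at 73.4% of miRNA gene regions in RelBko cells, against 75.9% of all regions, and at 80.7% in WT cells, against 82.0%. RelB at 1 h was enriched at 5.43% in RelBko cells, against 6.36% of all regions, and at 79.0% in WT cells, against 81.7%. At 0 h the shares were 20.1% in RelBko cells, against 24.1%, and 70.8% in WT cells, against 75.9%. The miRNA regions were thus enriched at slightly smaller shares than all regions in each of the 6 ChIP libraries. Of the 602 genes, 588 had a region enriched in at least 1 ChIP library, and 93 regions were enriched in none.

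These regions lie mostly away from gene starts, and few are promoters. Introns held 1240 of them (53.9%, against 44.1% of all regions), intergenic sequence 814 (35.4%, against 39.2%) and promoters 82 (3.56%, against 11.0%). Regions at transcript ends made up 3.91% of the miRNA set and 1.49% of all regions. The annotated start of a miRNA gene is that of its hairpin in the deposited table, apart from 22 regions of 4 host transcripts. By RefSeq, 437 of the 602 miRNA genes (72.6%) lie inside a protein-coding gene. A gene had a median of 3 regions and at most 24, and 179 genes had 1. The median distance to the start was 18048 bp, and 43.5% of the regions lay upstream.

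Near the start, miRNA genes differed from the whole. Of 139 miRNA regions within 1 kb, RelA was enriched at 79.9% in RelBko cells and at 85.6% in WT cells, while among all 14736 regions within 1 kb of a start it was enriched at 94.4% in RelBko cells and 95.1% in WT cells. Median RelA signal there was 6.88 RPKM in RelBko and 6.95 RPKM in WT cells for miRNA regions, and 12.4 RPKM in RelBko and 11.7 RPKM in WT cells for all. Between 50 and 100 kb the order was the other way, with 73.2% in RelBko and 80.5% in WT cells for miRNA regions, against 69.2% in RelBko and 77.2% in WT cells for all. Signal at miRNA genes thus varied less with distance to the annotated start.

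**Figure D1:**
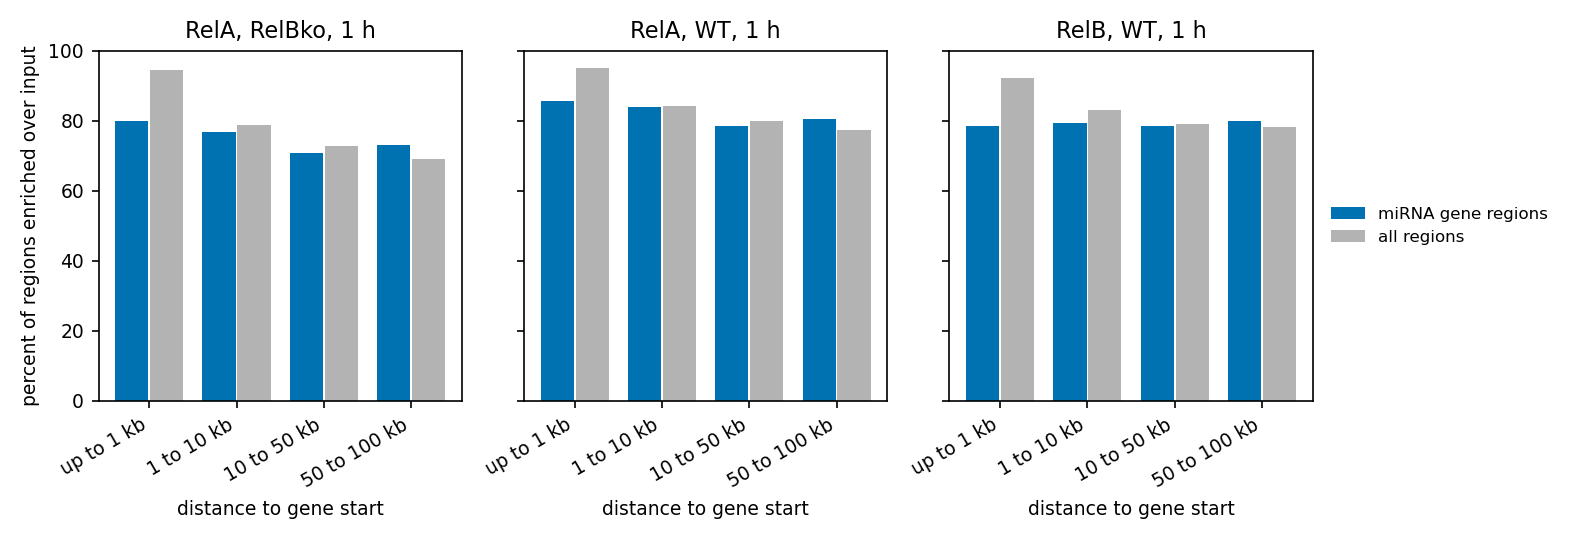
Share of regions enriched over input (percent) by distance to the annotated gene start, for miRNA gene regions (blue) and all regions (grey), in 3 of the 6 ChIP libraries, 1 panel each. Within 1 kb the blue bars (79.9%, 85.6% and 78.4%) stand below the grey ones (94.4%, 95.1% and 92.1%), and beyond 10 kb both are alike to within a few points.

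Strong binding was about as frequent at miRNA genes as elsewhere. A mean of at least 40 RPKM over the 3 WT ChIP libraries was reached by 120 miRNA gene regions (5.22%, against 4.85% of all regions), in 80 genes. The 12 genes of highest mean were Mir7661, Mir101b, Mir3966, Mir5123, Mir6339, Mir29b-1, Mir6415, Mir365-2, Mir7001, Mir7057, Mir34a and Mir8098. Several lie in host genes, Mir7661 in Itpr1, a calcium release channel, Mir5123 in B4galt1, a galactosyltransferase, Mir6415 in Scarb2, a lysosomal membrane protein, and Mir7001 in Cd82, a tetraspanin.

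The strongest was a region 63457 bp downstream of the start of Mir7661, which had 70.0 RPKM of RelA in RelBko cells and 71.99 RPKM in WT cells. RelB there was 2.18 RPKM in RelBko cells and 132 RPKM in WT cells at 1 h, and 5.99 RPKM in RelBko cells and 179 RPKM in WT cells at 0 h, with 2.15 RPKM in input. RelA thus differed little between genotypes, and RelB at 1 h in RelBko cells stood at the input level. Mir101b, whose miRNA is encoded within Rcl1, had a region with 69.7 RPKM of RelA in RelBko cells and 81.1 RPKM in WT cells, and with RelB of 4.35 RPKM in RelBko and 110 RPKM in WT cells at 1 h. Its RelB signal at 0 h was 6.69 RPKM in RelBko and 142 RPKM in WT cells, and input had 2.22 RPKM. Over the 12 genes, RelA ranged over 30.6 to 94.8 RPKM in RelBko cells and 43.6 to 86.9 RPKM in WT cells, so that the ranges overlapped. RelB at 1 h ranged over 1.59 to 6.36 RPKM in RelBko cells and 86.3 to 148 RPKM in WT cells, and input stayed between 0.446 and 2.22 RPKM. The 12 genes were chosen by signal in WT cells, RelB included, so high WT values follow from the choice. Lower RelB in RelBko cells was also general, with 95.9% of all compared regions lower by 2-fold at 1 h.

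**Figure D2:**
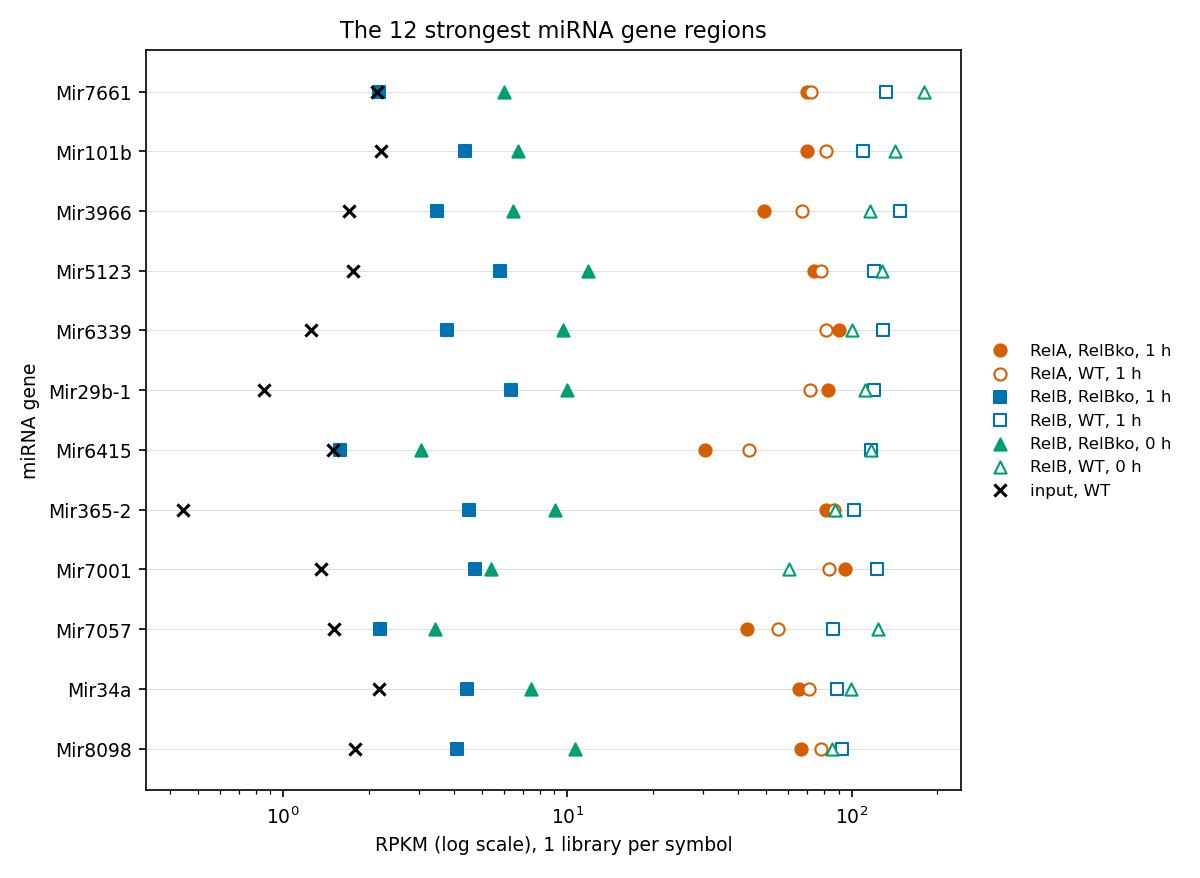
Signal (RPKM, log scale) in each of the 7 libraries at the strongest region of the 12 miRNA genes with the highest mean over the 3 WT ChIP libraries, 1 symbol per library. Filled symbols are RelBko and open symbols WT cells: RelA (circles) lies close together in both, while RelB of RelBko cells (filled squares and triangles, 1.59 to 11.8 RPKM) lies far left of RelB of WT cells (60.2 to 179 RPKM).

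Some loci were bound over many regions. Mir3473f, within Bcl2, the apoptosis inhibitor gene, had 24 regions, Mir7661 had 23, Mir582, within Pde4d, a cAMP phosphodiesterase gene, had 22, and Mir496b, within Gnaq, a G protein subunit gene, had 20. Their regions were very unequal. Those of Mir7661 ranged over 0.491 to 88.5 RPKM (median 13.1) for RelA in RelBko cells and 0.334 to 109 RPKM (median 17.4) in WT cells. Of its 21 regions compared for RelA between genotypes, 1 was lower by 2-fold in RelBko cells.

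Of the 120 strong regions, 12 lay within 1 kb of a start, in 11 genes. Mir142, a miRNA of blood cells, had 83.9 RPKM of RelA in RelBko cells and 82.2 RPKM in WT cells at a promoter region 253 bp upstream. RelB there was 5.77 RPKM in RelBko and 61.3 RPKM in WT cells at 1 h, and 12.2 RPKM in RelBko and 58.8 RPKM in WT cells at 0 h, with 2.02 RPKM in input. Mir762 had 81.4 RPKM of RelA in RelBko and 84.5 RPKM in WT cells, 177 bp upstream. The other strong regions near a start belonged to Mir7228 (2 regions), Mir688, Mir193a, Mir155hg, Mir1931, Mir5619, Mir6904, Mir7671 and Mir1932. None of the 12 differed by 2-fold in RelA between RelBko and WT cells, and their log2 ratios lay between -0.55 and 0.18. Of 4534 strong regions over the whole table, 54 (1.19%) were lower and 1 (0.0221%) was higher, so a count of 0 among 12 does not set these apart.

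For Mir155, a miRNA of dendritic cell and B cell activation, all signal was assigned to its host transcript, Mir155hg. Its promoter region, 193 bp after the start (mm9, chromosome 16, 84713272 to 84713650), had 38.0 RPKM of RelA in RelBko cells and 50.4 RPKM in WT cells, a read ratio of 0.754 (0.647 to 0.879). The region 9976 bp upstream (84703098 to 84703487) had 119 RPKM in RelBko cells and 98.1 RPKM in WT cells, a read ratio of 1.21 (1.10 to 1.34). The 2 regions of this gene thus differed in opposite directions, both by less than 2-fold. RelB at 1 h was 2.57 RPKM in RelBko and 48.1 RPKM in WT cells at the promoter, and 5.65 RPKM in RelBko and 103 RPKM in WT cells upstream. At 0 h it was 5.58 RPKM in RelBko and 64.8 RPKM in WT cells at the promoter, and 8.36 RPKM in RelBko and 51.0 RPKM in WT cells upstream. Input was 1.80 RPKM at the promoter and 1.36 RPKM upstream. RelB of WT cells was thus lower at 1 h than at 0 h at the promoter (ratio 0.742, 0.664 to 0.829) and higher upstream (ratio 2.01, 1.83 to 2.21).

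Of 30 symbols listed as NF-kB and TLR responsive miRNAs, 19 had a region, and their strongest regions had a higher median than those of all miRNA genes. The median of their WT means was 21.9 RPKM, against 9.52 RPKM over all 602 genes. Of the 19, 5 (Mir29b-1, Mir34a, Mir147, Mir146 and Mir21a) reached 40 RPKM, against 80 of all 602. These 5 had from 5 (Mir147) to 14 regions (Mir21a), where the median gene had 3. The level of a gene is that of its strongest region and was not adjusted for the number of regions. A list of myeloid and lymphoid lineage miRNAs had 12 of 33 symbols with a region and a median of 14.2 RPKM. Growth control miRNAs had 15 of 30 and a median of 5.14 RPKM, and miRNAs restricted to other tissues, such as muscle, liver or brain, had 11 of 42 and a median of 4.02 RPKM. The lists include alternative symbols of the same gene, such as Mir21 and Mir21a or Mir122 and Mir122a. The numbers of symbols with a region are therefore not shares of bound genes. The order of the medians thus put both immune lists above the others, without regard to the number of regions per gene.

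Mir146, the deposited name of Mir146a, whose product restrains TLR signalling through Irak1 and Traf6, was bound 10968 bp upstream of its hairpin (mm9, chromosome 11, 43198628 to 43199235). RelA there was 72.6 RPKM in RelBko cells and 87.2 RPKM in WT cells, RelB at 1 h 2.87 RPKM in RelBko and 53.8 RPKM in WT cells, and RelB at 0 h 6.02 RPKM in RelBko and 73.0 RPKM in WT cells, with 0.499 RPKM in input. Mir146b, on chromosome 19 and with the same seed, had 38.2 RPKM of RelA in RelBko and 45.7 RPKM in WT cells, 1790 bp upstream. Both of these feedback miRNAs had more RelA than RelB signal in WT cells at 1 h, with read ratios of 1.62 (1.48 to 1.78) for Mir146 and 1.83 (1.54 to 2.16) for Mir146b. Mir21a, an abundant miRNA of activated myeloid cells encoded within Vmp1, had 52.3 RPKM of RelA in RelBko and 51.8 RPKM in WT cells. Mir147, a TLR-induced miRNA, had 59.6 RPKM in RelBko and 58.5 RPKM in WT cells.

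Within a seed family, the levels of assigned regions could differ widely between genes. In the miR-29 family, the strongest region averaged 101 RPKM over the WT ChIP libraries for Mir29b-1, against 3.26 RPKM for Mir29b-2, 3.24 RPKM for Mir29c and 2.63 RPKM for Mir29a. Mir29a and Mir29b-1 are neighbours on chromosome 6, and the deposited table gives each region to 1 gene, so 13 regions went to Mir29b-1 and 1 to Mir29a. The 13 lay upstream of the Mir29b-1 start, at -70261 to -2487 bp, and that of Mir29a lay 5763 bp downstream of its start. The contrast between these neighbours thus cannot be told apart from the assignment of regions by side. On chromosome X, Mir222 likewise had 11 regions, all upstream (-90757 to -10712 bp), and a strongest mean of 39.0 RPKM. Mir221 had 3 regions, the strongest 85975 bp downstream with a mean of 2.61 RPKM. Of the genes with the miR-9 seed, Mir9-1 averaged 34.2 RPKM, Mir9-3 29.4 RPKM and Mir9-2 4.03 RPKM.

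**Figure D3:**
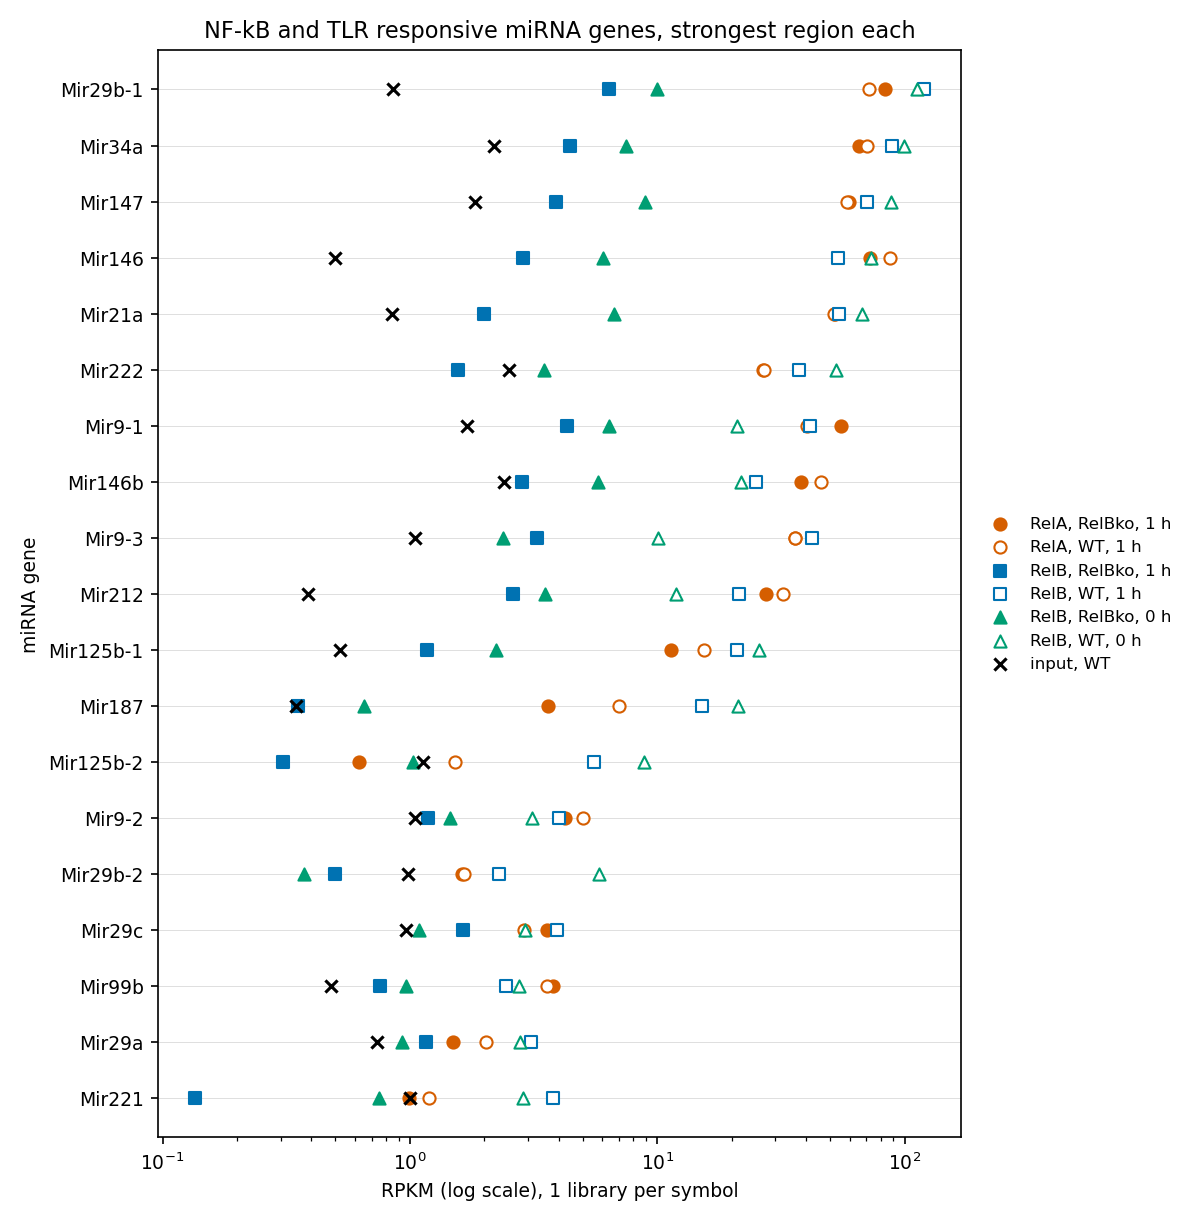
Signal (RPKM, log scale) in each of the 7 libraries at the strongest region of the 19 measured NF-kB and TLR responsive miRNA genes, ordered by the mean of the 3 WT ChIP libraries, 1 symbol per library. RelA of RelBko and WT cells (filled and open circles) runs together from Mir29b-1 (82.9 and 71.4 RPKM) down to Mir221 (0.989 and 1.20 RPKM), whereas RelB of RelBko cells (filled squares and triangles) stays at or below 10 RPKM throughout.

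In the other lists, the strongest myeloid or lymphoid genes were Mir142, at its region 7180 bp upstream (63.1 RPKM of RelA in RelBko and 60.0 RPKM in WT cells), Mir23a (56.4 RPKM in RelBko and 53.0 RPKM in WT cells) and Mir511, within the mannose receptor gene Mrc1 (18.3 RPKM in RelBko and 27.2 RPKM in WT cells). Mir223, the miRNA best known for granulocyte and macrophage differentiation, had 1 region with 5.31 RPKM of RelA in RelBko and 4.18 RPKM in WT cells. Of the growth control genes, Mir26b led (39.8 RPKM in RelBko and 44.1 RPKM in WT cells), followed by Mir15a and Mir30d. Of the genes restricted to other tissues, Mir122, the liver miRNA, stood apart with 30.3 RPKM in RelBko and 32.1 RPKM in WT cells, at an exon 55998 bp from its start. The next, Mir200c and Mir205, both epithelial, averaged 17.8 and 13.7 RPKM over the WT ChIP libraries.

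RelA binding at miRNA genes differed by less than 2-fold between genotypes at most regions, and those that differed by more were mostly weak ones with less RelA in RelBko cells. Regions enriched in at least 1 of both libraries were compared, and a region is called where the log2 ratio, with 0.5 RPKM added, is at or past 1 in size (2-fold). Of 1960 compared miRNA regions, 116 (5.92%, in 92 genes) were lower in RelBko than in WT cells, against 4.94% of all compared regions, and 21 (1.07%) were higher, against 1.30%. The median log2 ratio was -0.11 for miRNA regions and -0.06 for all. Regions called lower had median RelA signals of 1.43 RPKM in RelBko cells and 4.37 RPKM in WT cells, and the interval of the read ratio lay below 1 for 114 of the 116. Scaled on regions without enrichment, the split was 39 higher and 94 lower, and the median of miRNA regions turned to 0.01. With 0.5 RPKM added, 6.99% of miRNA regions and 6.24% of all were called in either direction. With 1 RPKM added, 4.42% of miRNA regions were called. No shares of all regions are given for that scaling or for 1 RPKM.

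Of the regions with less RelA in RelBko cells, the one with the largest difference lay 10764 bp from Mir7676-2 (mm9, chromosome 15, 78104347 to 78104684), a miRNA gene within Csf2rb, which encodes the beta chain shared by the GM-CSF, IL-3 and IL-5 receptors. It had 3.33 RPKM of RelA in RelBko cells and 20.2 RPKM in WT cells (27 and 120 reads, read ratio 0.165, 0.105 to 0.252). RelB there was 1.82 RPKM in RelBko and 50.9 RPKM in WT cells at 1 h, and 1.52 RPKM in RelBko and 105 RPKM in WT cells at 0 h, with 2.24 RPKM in input. RelB signal in WT cells was thus above that of RelA, and RelA in RelBko cells was near input. The other 4 regions of Mir7676-2 were not called, and over all 5 RelA ranged over 1.93 to 47.3 RPKM in RelBko and 1.58 to 43.5 RPKM in WT cells. Mir7676-1, within the neighbouring Csf2rb2, which encodes the mouse IL-3 receptor beta chain, had 3 regions and all 3 were called lower. Their RelA signal was 1.10 to 1.73 RPKM in RelBko cells and 3.82 to 6.06 RPKM in WT cells. The gene is named because 1 of these regions had among the 4 largest decreases. All 3 lie close together, at -4407 to -2448 bp, and come from 1 library per genotype, so they are not replicates. Both genes encode the same miR-7676 shown above.

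Large differences downwards were also found at Mir1904 and Mir7676-1. A region of Mir1904, within Pde4d, had 0.798 RPKM of RelA in RelBko and 4.53 RPKM in WT cells (6 and 25 reads, ratio 0.176, 0.0591 to 0.440). RelB of WT cells at 1 h exceeded RelA at this region, with 13.8 RPKM. Of the 14 regions of Mir1904, 12 were compared, and 1 was called lower and 1 higher. At Mir7676-1 the most different region had 1.34 RPKM in RelBko and 6.06 RPKM in WT cells (ratio 0.222, 0.118 to 0.394).

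Higher RelA in RelBko cells was found at Mir455, Mir6934, Mir151 and Mir1903. The Mir6934 region had 17.8 RPKM in RelBko and 5.30 RPKM in WT cells (151 and 33 reads, ratio 3.36, 2.29 to 5.06), and that of Mir151, within the focal adhesion kinase gene Ptk2, 7.79 RPKM in RelBko and 2.32 RPKM in WT cells (ratio 3.36, 1.86 to 6.48). At Mir455, 4.45 RPKM in RelBko cells stood against 0.173 RPKM in WT cells, where it was 1 read (35 reads in RelBko cells, ratio 25.7, 4.32 to 1044). These regions carried little RelB, at most 4.62 RPKM in WT cells at 1 h.

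Among the 120 strong regions, 3 had 2-fold less RelA in RelBko cells and none had more, against 54 lower (1.19%) and 1 higher (0.0221%) of 4534 strong regions over the whole table. Strong regions are chosen by the mean of the WT ChIP libraries, WT RelA included, which favours values that are lower in RelBko cells. The 3 were chosen for naming after their values were seen: Mir7676-2, Mir7031 and a second region of Mir29b-1. Mir7031, within Sh2b3, an adaptor that restrains cytokine signalling, had 12.5 RPKM of RelA in RelBko and 29.4 RPKM in WT cells (ratio 0.424, 0.336 to 0.534). The Mir29b-1 region (mm9, chromosome 6, 31069242 to 31069593) had 13.3 RPKM in RelBko and 31.2 RPKM in WT cells (ratio 0.426, 0.335 to 0.541). Its strongest region, in contrast, had 82.9 RPKM in RelBko and 71.4 RPKM in WT cells (ratio 1.16, 1.03 to 1.31), and 1 of the 13 regions of this gene was called. Over all 120, the median log2 ratio was -0.04, with 52 above 0 and 68 below. None of the 16 compared NF-kB and TLR responsive genes was called for RelA, where the strongest regions of all 535 compared miRNA genes held 28 lower (5.23%) and 4 higher (0.748%), so a count of 0 in a list this short does not set it apart. Their log2 ratios ran from -0.87 at Mir187 to 0.45 at Mir9-1, with a median of -0.06 that turned to 0.06 when scaled on regions without enrichment. The other 3 lists, with 11, 12 and 9 compared genes, likewise held no called gene, and the medians of the myeloid and growth lists, -0.09 and -0.05, turned to 0.03 and 0.06 under that scaling. The list of other tissues had the lowest median, -0.36 with 8 of 9 genes below 0, and kept its sign at -0.26, against -0.11 over all compared miRNA genes. That median is the value of Mir133a-2, with 15 reads in each genotype (ratio 0.734, 0.334 to 1.61). Among the compared genes of this list, the interval lay below 1 for Mir128-1 alone (ratio 0.638, 0.407 to 0.997), so the other values are within counting error.

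**Figure D4:**
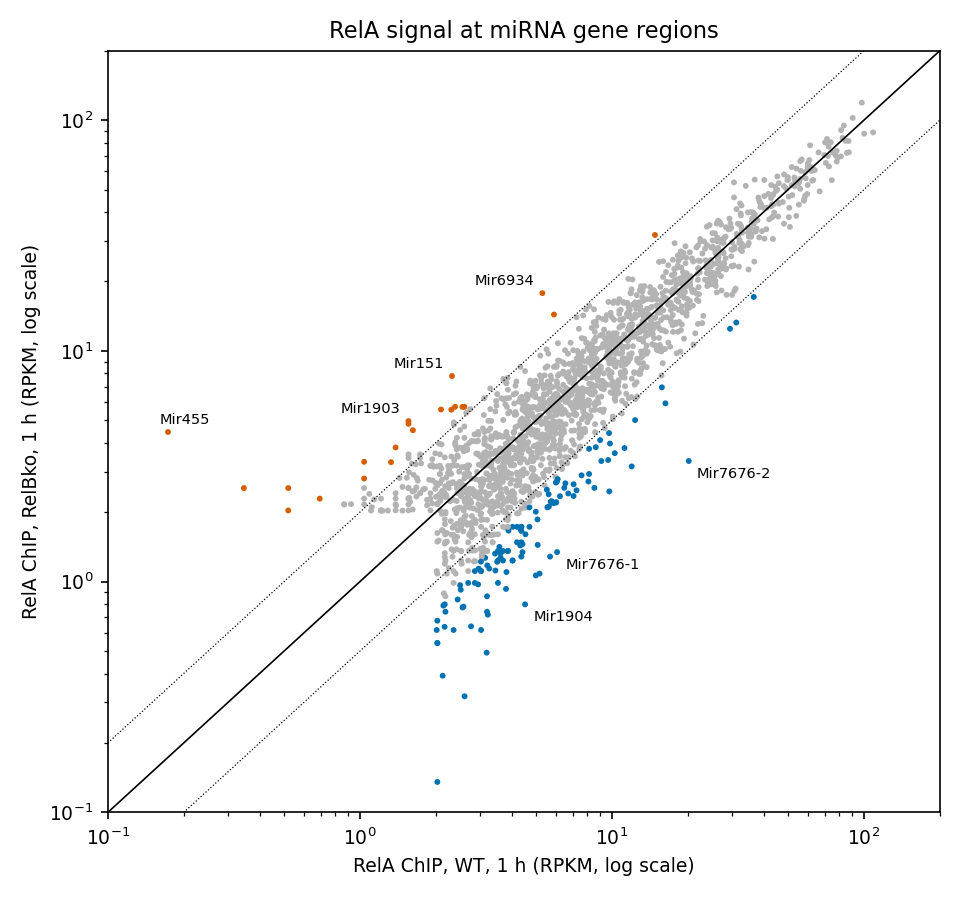
RelA signal in RelBko cells (vertical, RPKM, log scale) against that in WT cells (horizontal, RPKM, log scale) at 1 h of LPS, for the 1960 compared miRNA gene regions, 1 point each. The solid line marks equal signal and the dotted lines 2-fold on the plain values; blue points are the 116 called lower and orange points the 21 called higher after 0.5 RPKM is added, most of them at low signal, with Mir7676-2 (3.33 and 20.2 RPKM) furthest from the line among the stronger ones.

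RelB ChIP signal was lower in RelBko than in WT cells at nearly every miRNA region, as it was over the whole table. At 1 h, 1733 of 1822 compared miRNA regions (95.1%, against 95.9% of all) were lower by 2-fold, with a median log2 ratio of -2.44, against -2.47. At 0 h, 1431 of 1652 (86.6%, against 86.0%) were lower, with a median of -1.91, against -1.85. All 120 strong regions were lower at 1 h and 119 at 0 h, much as over the whole table, where 4529 of 4534 strong regions (99.9%) were lower at 1 h and 4524 of 4531 (99.8%) at 0 h. The exception was a region of Mir6996, within Notch1, with 10.8 RPKM in RelBko and 21.6 RPKM in WT cells at 0 h (log2 ratio -0.97). The median signals are those of the RelB antibody in cells labelled RelBko and WT, and scaling to a median log2 ratio of 0 removes them by construction.

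The largest differences at 1 h were at Mir6415, Mir7661, Mir6368 and Mir5104. Mir6415 had 1.59 RPKM of RelB in RelBko cells and 117 RPKM in WT cells (11 and 1181 reads, ratio 0.0136, 0.00676 to 0.0244). Mir6368, whose nearest protein-coding gene is Sox4, a transcription factor, had 0.812 RPKM in RelBko and 54.0 RPKM in WT cells, and Mir5104, within Zc3h12d, had 1.18 RPKM in RelBko and 67.8 RPKM in WT cells. All 4 were thus at or below 2.18 RPKM in RelBko cells. At 0 h the order was Mir7676-2 (1.52 RPKM in RelBko and 105 RPKM in WT cells, ratio 0.0144, 0.00659 to 0.0275), Mir6415, Mir7057 and Mir6368.

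Higher RelB signal in RelBko cells was rare. At 1 h, 2 regions (0.110%, against 0.128% of all) were higher, and by the read minimum of 30 one is named, Mir6356, with 25.03 RPKM in RelBko and 7.12 RPKM in WT cells (ratio 3.52, 2.33 to 5.41). This 168 bp region had the highest signal of any miRNA region in that library and 3.16 RPKM in input. At 0 h, 12 (0.726%, against 0.504%) were higher, and Mir6934 is named, with 3.21 RPKM in RelBko and 1.35 RPKM in WT cells (ratio 2.38, 1.16 to 4.95). That call ended with 1 RPKM added (log2 ratio 0.84).

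LPS for 1 h went with 2-fold more RelB signal in WT cells at a minority of miRNA regions and with less at few. Of 1929 compared regions, 267 (13.8%, in 180 genes, against 11.0% of all) were higher at 1 h than at 0 h, and 38 (1.97%, against 1.68%) were lower. The median log2 ratio was 0.16 for miRNA regions and 0.14 for all. Regions called higher had median signals of 6.49 RPKM after LPS and 1.95 RPKM before it. Scaled to a median log2 ratio of 0 over all regions, 206 were higher and 66 lower. No share of all regions is given for that scaling, so these counts do not set miRNA regions apart.

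**Figure D5:**
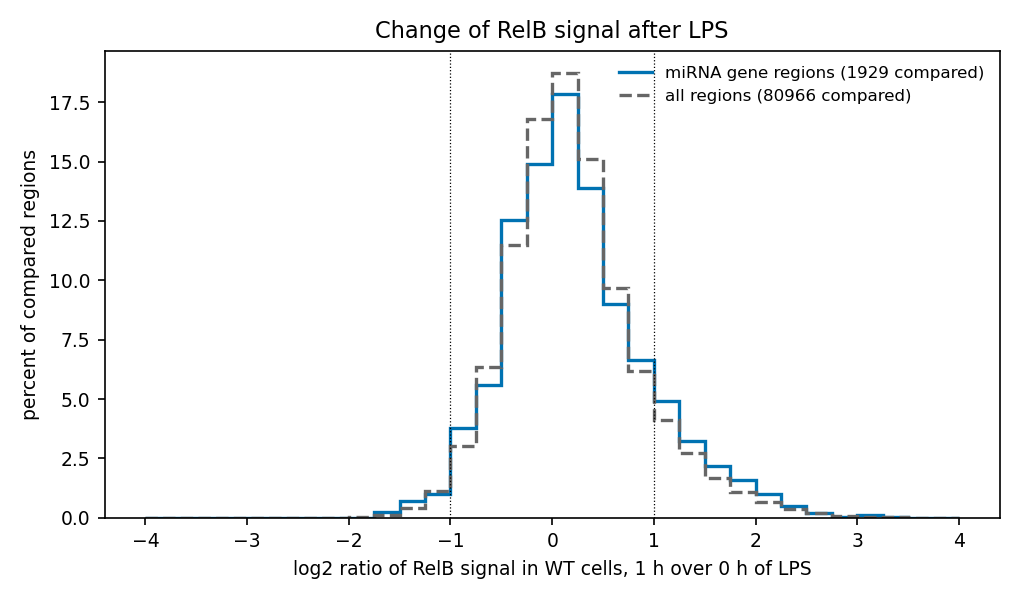
Distribution of the log2 ratio of RelB signal in WT cells, 1 h over 0 h of LPS, as percent of compared regions, for 1929 miRNA gene regions (blue, solid) and 80966 regions in all (grey, dashed). The dotted lines mark 2-fold: 13.8% of miRNA regions lie to the right of the upper one and 1.97% to the left of the lower one, against 11.0% and 1.68% of all.

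The largest gains were at Mir582, Mir1900, Mir7001 and Mir568. A region in a Pde4d intron 93931 bp from Mir582 had 31.9 RPKM of RelB after LPS, against 2.57 RPKM before (312 and 31 reads, ratio 12.4, 8.57 to 18.6). RelA was also high there, with 35.3 RPKM in RelBko and 27.1 RPKM in WT cells. Mir1900, within the adhesion receptor gene Icam5, had 29.96 RPKM after LPS, against 3.04 RPKM before (ratio 9.87, 7.03 to 14.2), and the Mir7001 region in the 3′ UTR of its host had 30.01 RPKM after LPS, against 3.30 RPKM before (ratio 9.09, 6.54 to 12.9). Mir568 had 19.8 RPKM after LPS, against 2.07 RPKM before (ratio 9.57, 6.29 to 15.2). At this last region RelA was 2-fold higher in RelBko cells, 31.8 RPKM against 14.8 RPKM in WT cells. The largest losses, at Mir21c, Mir6940, Mir92-1 and Mir1948, were of weak regions, with 0.685 to 1.71 RPKM at 1 h and 3.43 to 6.20 RPKM at 0 h.

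At strong regions, 6 of 120 were higher at 1 h and 4 lower, named here after their values were seen, against 204 higher (4.50%) and 48 lower (1.06%) of 4533 strong regions over the whole table. Higher were Mir7671, beside Irf1, a transcription factor of the interferon response (55.8 RPKM after LPS, against 15.0 RPKM before, ratio 3.72, 3.14 to 4.42), Mir5619 (72.05 RPKM after LPS, against 19.8 RPKM before), Mir7086, within the IL-10 receptor gene Il10ra (91.5 RPKM after LPS, against 41.7 RPKM before), Mir762, Mir7228 and Mir7001. Of these, the calls of Mir7086, Mir762, Mir7228 and Mir7001 ended at a median log2 ratio of 0 (0.98, 0.97, 0.92 and 0.89). Lower were Mir1932, within Rnf213 (26.0 RPKM after LPS, against 74.4 RPKM before, ratio 0.349, 0.303 to 0.402), Mir6769b (53.9 RPKM after LPS, against 143 RPKM before), Mir148a (49.1 RPKM after LPS, against 102 RPKM before) and Mir7676-2 (50.9 RPKM after LPS, against 105 RPKM before). Mir7671, Mir5619, Mir762 and Mir7228, and downwards Mir1932, are also the 5 called among the 12 strong regions within 1 kb of a start.

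NF-kB and TLR responsive miRNA genes did not share a direction with LPS. Their median log2 ratio for RelB in WT cells was -0.15, against 0.14 over the strongest regions of all compared miRNA genes, with 9 of 19 above 0 and 10 below. Of the 549 compared miRNA genes, 64 (11.7%) were called higher and 15 (2.73%) lower at their strongest region, and of the 19 listed genes 1 each way. Mir9-3 was higher (42.3 RPKM after LPS, against 10.0 RPKM before, ratio 4.22, 3.45 to 5.18) and Mir29b-2 lower (2.28 RPKM after LPS, against 5.83 RPKM before, ratio 0.392, 0.224 to 0.656). Mir9-1 came close to the limit, with 41.5 RPKM after LPS, against 20.9 RPKM before (log2 ratio 0.97). Mir146 had 53.8 RPKM after LPS, against 73.0 RPKM before (ratio 0.736, 0.678 to 0.799), and Mir222 had 37.5 RPKM after LPS, against 52.5 RPKM before. Growth control genes had 4 of 15 higher (Mir30e, Mir26a-1, Mir7-2 and Mir16-1) and a median of 0.37, those of other tissues had 2 of 11 higher (Mir200c and Mir133a-2) and a median of 0.33. Of these genes, Mir30e, Mir16-1 and Mir133a-2 were weak before LPS (0.727, 0.454 and 0.717 RPKM, or 8, 5 and 9 reads). After LPS they had 6.83, 2.24 and 2.95 RPKM, while Mir26a-1, Mir7-2 and Mir200c had 25.5, 13.2 and 19.8 RPKM. In the myeloid and lymphoid list Mir511 was higher among 12 (38.8 RPKM after LPS, against 16.8 RPKM before), and the median of 0.08 turned to -0.06 at a median log2 ratio of 0.

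RelA and RelB signals of WT cells at 1 h differed by 2-fold at a minority of miRNA regions, in both directions. They came from different antibodies, so a level of one is not an amount of the other. Of 2072 compared regions, 173 (8.35%, against 7.45% of all) had more RelA and 130 (6.27%, against 7.21%) more RelB. The median log2 ratio of RelA over RelB was -0.19 for miRNA regions and -0.16 for all, and scaled to a median of 0 over all regions the split was 226 with more RelA and 85 with more RelB. That split is of miRNA regions alone, without the share of all regions beside it. With 1 region per gene, 32 of 563 genes (5.68%) had more RelA and 44 (7.82%) more RelB. That region is the strongest by the mean of the WT ChIP libraries, RelB at 0 h and 1 h included, which favours more RelB.

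More RelA was found at Mir7041, Mir5046, Mir137 and Mir6414, where RelB was weak. Mir5046, within Rps6ka4, a stress-activated kinase gene, had 10.8 RPKM of RelA and 1.26 RPKM of RelB (69 and 13 reads, ratio 8.58, 4.70 to 16.9). Mir7041, within Lrig1, had 8.58 RPKM of RelA and 0.729 RPKM of RelB (ratio 11.8, 5.32 to 30.8). Mir137, a neuronal miRNA, had 9.67 RPKM of RelA and 1.12 RPKM of RelB, and in RelBko cells its RelA was 3.37 RPKM. The opposite order was largest at Mir7050, Mir149, Mir6935 and Mir701, of which Mir6935, within the actin gene Actg1, had 2.40 RPKM of RelA and 11.1 RPKM of RelB (ratio 0.216, 0.117 to 0.372).

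Among the 120 strong regions, 3 had more RelA and 9 more RelB, against 39 (0.860%) and 340 (7.50%) of 4534 strong regions over the whole table, so the count with more RelB was at the general share. Strong regions are chosen by the mean of the WT ChIP libraries, RelB at 0 h and 1 h included, which favours regions with more RelB. Those named here were chosen after their values were seen. The Mir6996 region in a Notch1 intron had 85.6 RPKM of RelA and 17.4 RPKM of RelB (256 and 84 reads, ratio 4.92, 3.83 to 6.38), the Mir762 promoter 84.5 RPKM of RelA and 40.1 RPKM of RelB, and a second Mir5123 region 72.7 RPKM of RelA and 34.5 RPKM of RelB. More RelB was found at Mir6415 (43.6 RPKM of RelA and 117 RPKM of RelB, ratio 0.372, 0.325 to 0.425) and at the Mir29b-1 and Mir7676-2 regions with less RelA in RelBko cells. Mir3966, Mir3058, Mir5104 and Mir6933 also had more RelB, as did regions of Mir7661 and Mir21a other than their strongest. These lay 59951 bp from Mir7661 (60.7 RPKM of RelA and 142 RPKM of RelB) and 6718 bp from Mir21a (27.1 RPKM of RelA and 59.2 RPKM of RelB). The strongest regions of Mir7661 and Mir21a were not called (log2 ratios -0.87 and -0.06). The calls of Mir3966, Mir21a and Mir6933 ended at a median log2 ratio of 0 (-0.99, -0.96 and -0.85). In the NF-kB and TLR list, Mir125b-2, Mir221 and Mir187 had more RelB among 18 compared (log2 ratios -1.58, -1.34 and -1.05), and none had more RelA. The growth list held 4 of 15 genes with more RelB, that of other tissues 2 of 11 and the myeloid and lymphoid list none of 12, and no listed gene had more RelA, beside the 7.82% and 5.68% of all compared miRNA genes. The comparisons above share libraries, so that 1 library enters several of them.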

How the data were processed

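ChIP-seq of RelA and RelB, with 1 library for each of 6 groups of antibody, genotype and time, and 1 input library were analysed. The authors deposited 1 table with an RPKM value for each region and library, per the file headers, together with each region's position, nearest gene and distance to its start. HISAT2, HOMER, bedtools and the build mm9 stand in the submitters' processing notes. What each tool did, its version and the rule for choosing regions were not given in the sources used. Per the labels, chromatin was crosslinked with 1 mM DSG and 1% PFA, and the antibodies were D7D7W (RelB) and D14E12 (RelA) from the sample characteristics, while the extract protocol names an antibody against RelA alone.

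RPKM times region length was a whole multiple of 1 read for 100% of values within 0.01 read, which gave the total and the reads of each region. The smallest values equal 1 read, so that 1 read may have been added to each, and an alternative takes it off. Values were compared as log2 ratios with 0.5 RPKM added, without a filter other than enrichment in at least 1 of both libraries (at least 2 RPKM and 2-fold over input), and called at 2-fold. Exact 95% (Clopper-Pearson) intervals of read ratios scaled by library totals cover counting error only. No p-value was computed, since each group has 1 library. The calls and intervals were tested on simulated data.

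Named were the 12 genes of highest mean over the WT ChIP libraries, 4 lists of miRNAs (135 symbols), per comparison up to 4 regions in each direction with at least 30 reads in both libraries together, the 5 genes with most regions, and regions within 1 kb of a start with at least 40 RPKM. Some results under this rule are not reported here. Members and lists were chosen with earlier results of these data known. Starts are printed counting from 1. Of the 602 genes, all were matched to RefSeq (GRCm38.p6) by transcript, 599 of them on the same chromosome, and host genes and sequences come from there. Python 3.11.15, numpy 2.4.6, pandas 2.3.3 and scipy 1.17.1 were used. All 7 value columns were used. Alternatives were other pseudocounts, filters, scalings, distances, 1 region per gene and 1 read taken off.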

Additional observations from a re-analysis of the deposited data

Results flagged for a closer look

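The median change of RelB signal with 1 h of LPS had opposite signs in the genotypes, at regions chosen by enrichment in RelB ChIP of WT cells. Over the same 1929 miRNA gene regions, the median log2 ratio of 1 h over 0 h was -0.43 in RelBko cells, with 516 regions above 0 and 1413 below. In WT cells it was 0.16, with 1181 above and 748 below. The difference was not tested, since each group has 1 library. Median RelB signal of RelBko cells was 0.984 RPKM after LPS, close to the 0.892 RPKM of input, and 1.34 RPKM before. In these cells RelB was enriched at 5.43% of miRNA regions after LPS and at 20.1% before. Neither sign was particular to miRNA genes. Over all regions, the RelBko medians were 1.06 RPKM after LPS and 1.49 RPKM before, and the WT median log2 ratio of compared regions was 0.14. Scaling to a median log2 ratio of 0 over all regions would take away most of the WT value.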

How the results depend on the processing

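No paired analysis was possible because each group has 1 library and the labels give no replicate numbers, and for the same reason no library could be left out. With 1 RPKM added, 4.42% of miRNA regions were called for RelA between genotypes, and with 0.5 RPKM added 6.99% were. Called and enriched shares under the alternatives are of miRNA regions alone, without those of all regions beside them. At a median log2 ratio of 0, which moves all values of RelB between genotypes by 2.47 at 1 h and 1.85 at 0 h, the called shares were 33.2% at 1 h (271 higher, 333 lower; 95.2% as deposited) and 26.7% at 0 h (163 higher, 278 lower; 87.3% as deposited). That scaling turned the sign at 1 h of Mir29c (1.41), Mir9-2 (1.05), Mir99b (1.24) and Mir29a (1.36). At 0 h it turned Mir205 (0.079), Mir29c (0.76), Mir212 (0.22), Mir15a (0.35), Mir30d (0.60), Mir99b (0.69), Mir146b (0.021), Mir9-1 (0.22), Mir29a (0.65), Mir762 (0.78) and Mir221 (0.43), and the median of the growth list, -2.05 at 1 h and -1.83 at 0 h, became 0.41 and 0.02. Scaled on regions without enrichment, RelA over RelB gave 212 higher and 98 lower. At 4 RPKM and 4-fold, enriched shares were 44.2% for RelA in RelBko and 47.9% in WT cells, 0.435% for RelB at 1 h in RelBko and 49.5% in WT cells, and 3.39% at 0 h in RelBko and 45.0% in WT cells. With 1 read taken off, 313 of the single values kept their sign and side of the limit, 1 passed the limit and 1 below it changed sign. Depth limits weak regions, since 877 of the 2301 held 1 to 3 reads in input.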
